A study of Mus musculus with 6 samples.

Results

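The extracellular matrix of muscle was followed here through 48 genes for collagens, other matrix proteins and the enzymes that build, cross-link or cut them, in vastus lateralis, a part of the quadriceps, of mice that overexpress FRG1 and of wild type mice. The genes were taken as a list and sorted by role, and all array probes annotated with one of their symbols, old or new, were collected. Col12a1, Col6a3, Nid2 and Fbn1 had no named probe in the annotation used and were not analysed here. The other 44 genes had 81 probes, and 61 of these were detected above background (detection p under 0.05) on at least 3 of the 6 arrays. Each of the 44 genes kept at least 1 such probe, out of 10287 genes measured on the arrays.

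RNA of 6 female C57Bl/6J mice aged 4 weeks was measured, 1 array each, 3 from wild type mice (Sample906, Sample872 and Sample923) and 3 from mice over-expressing FRG1 (Sample873, Sample874 and Sample871). FRG1, FSHD region gene 1, lies close to the repeats whose loss is linked to facioscapulohumeral muscular dystrophy. What drives the transgene, the species of its sequence and the number of founder lines are not stated in the labels, and no treatment is named for either group. The labels number the samples and do not describe breeding or handling, so p-values reflect the variation among these 6 samples and no wider source.

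Arrays summed to between 10537335 and 13062182 intensity units of signal, and each array detected between 42 and 44 of the 44 matrix genes. The single Frg1 probe was detected on 0 of the 6 arrays and checks neither the labels nor the transgene. Of 9 measured markers of muscle fibres, such as Ckm and Acta1, 0 were higher and 2 lower in transgenic muscle (22.2%, against 14.8% of all genes). These 2 were Actn3 (log2 fold change -0.79 ± 0.12, SE) and Myh4 (-0.45 ± 0.13). The Myh4 call was lost under 8 of 14 alternatives. Precision is limited by having 3 arrays in a group. Array values are log2 normalized intensities unless stated otherwise, and a fold change is transgenic over wild type. In whole muscle, fewer cells of a type and less RNA per cell cannot be told apart.

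Each muscle fibre is wrapped in a basement membrane of laminins, type IV collagen, nidogen and perlecan, and lies in a looser interstitial matrix of fibrillar collagens, fibronectin, elastic fibres and small proteoglycans. Fibroblasts and fibro-adipogenic progenitors make most of the interstitial matrix, and fibres, endothelial cells and Schwann cells add to basement membranes. Collagen chains are hydroxylated and folded in the endoplasmic reticulum with the aid of prolyl and lysyl hydroxylases and the chaperone Serpinh1, and are cross-linked outside the cell by Lox. Fibrosis, the build-up of this matrix, is a known feature of dystrophic muscle.

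Of the 44 matrix genes, 4 were higher and 4 were lower in transgenic muscle at an adjusted p under 0.05, that is 18.2% of them, against 14.8% of all genes measured (7.53% of all genes higher and 7.23% lower). Col8a1, Mfap5, Ctgf and Timp1 rose, and Lamb2, Col1a1, P4ha1 and Sparc fell. The median log2 fold change of the 44 genes was -0.06, and that of all genes -0.03. The samples of the groups did not overlap in 15 of the 44 (34.1%; 6 higher and 9 lower), against 36.6% of all genes (16.9% higher and 19.8% lower), so by either count the share was near that of the whole array. Median scaling was tried instead of quantile normalization and moved the median of all genes by 0.13. The counts were then 4 higher and 0 lower among the matrix genes, and 1049 higher and 280 lower among all genes, where quantile normalization gave 775 and 744. Without transgenic Sample873, without transgenic Sample871 or with the authors' processed values 1 matrix gene was called. Without wild type Sample906 3 were called, without wild type Sample872 4, and with no detection filter 3.

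**Figure D1:**
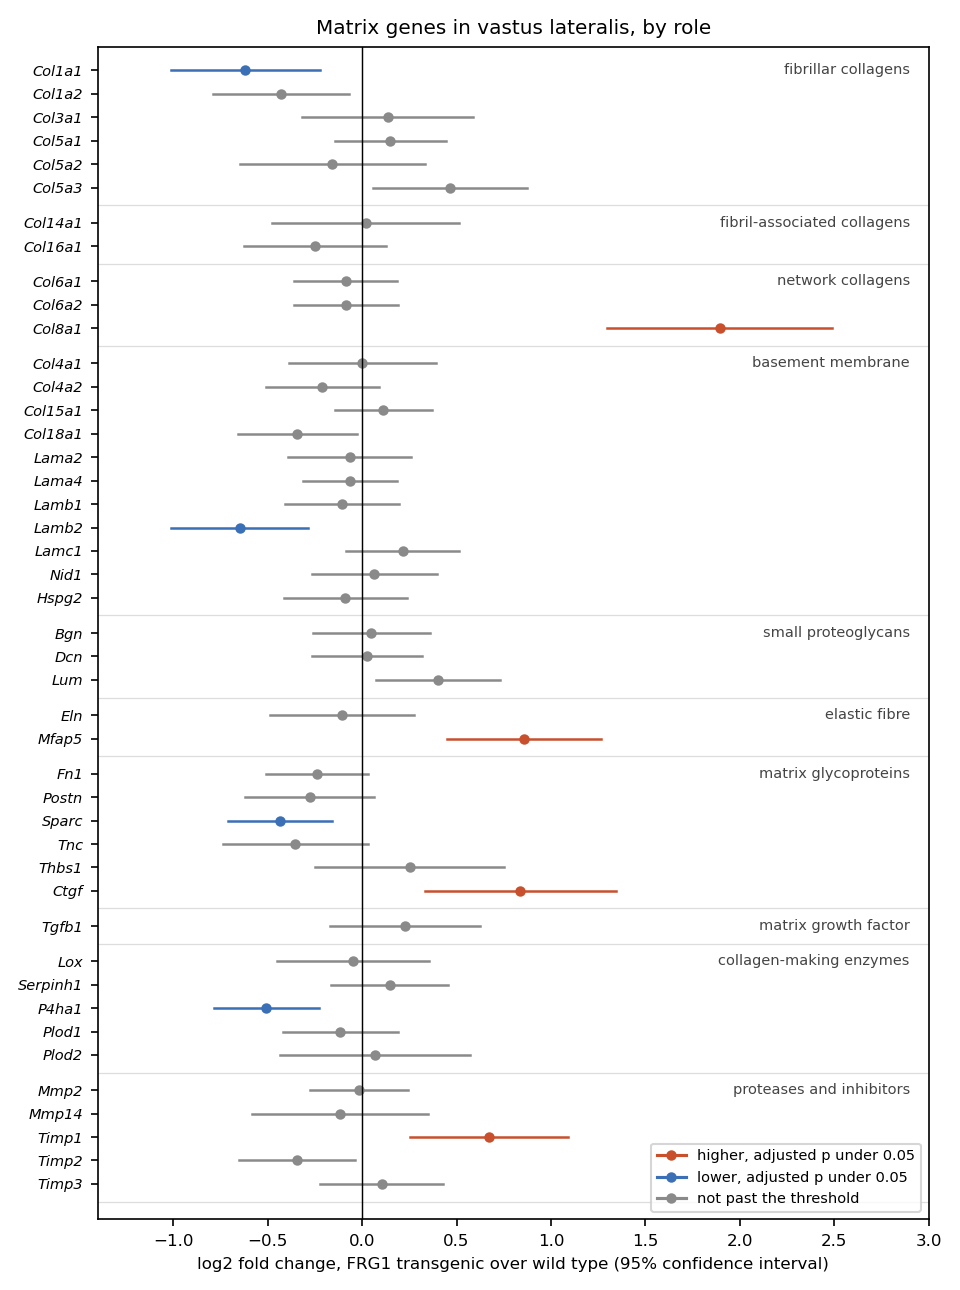
Log2 fold change (transgenic over wild type) of the 44 matrix genes by role, with 95% confidence intervals from the fit over 3 samples per group. Col8a1 lies apart at 1.89, and the other 43 genes lie between -0.65 and 0.86.

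The promoter windows of the called genes are shown first, as the DNA next to the start of the transcripts that changed. RefSeq (GRCm38.p6) gave a window of 250 bases before the start for 5 of the 8 called genes, and those with a match to any of 6 short motifs are printed. Col8a1 lies on the minus strand at chr16:57754738-57754987, Timp1 on the plus strand at chrX:20869916-20870165 and P4ha1 on the plus strand at chr10:59323046-59323295. Sequences run 5′ to 3′ on the strand of the gene, and capitals mark a motif on either strand.
Col8a1: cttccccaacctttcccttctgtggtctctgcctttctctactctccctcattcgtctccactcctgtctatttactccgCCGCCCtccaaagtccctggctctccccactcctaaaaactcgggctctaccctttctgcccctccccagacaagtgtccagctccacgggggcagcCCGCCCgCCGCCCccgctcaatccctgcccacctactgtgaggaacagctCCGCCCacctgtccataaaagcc
Timp1: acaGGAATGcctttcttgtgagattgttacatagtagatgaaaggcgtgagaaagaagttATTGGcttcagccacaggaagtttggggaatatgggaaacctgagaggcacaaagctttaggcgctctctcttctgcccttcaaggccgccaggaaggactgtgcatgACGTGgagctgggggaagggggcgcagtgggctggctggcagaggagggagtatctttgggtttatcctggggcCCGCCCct
P4ha1: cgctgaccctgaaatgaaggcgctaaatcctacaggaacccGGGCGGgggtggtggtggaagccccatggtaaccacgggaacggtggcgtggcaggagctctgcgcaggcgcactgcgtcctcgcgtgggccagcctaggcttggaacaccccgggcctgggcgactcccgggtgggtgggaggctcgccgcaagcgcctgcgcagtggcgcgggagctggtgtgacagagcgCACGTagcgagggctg

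The motifs searched were AP-1 (TGANTCA, held by 6.75% of the 32851 windows available), the TATA box (TATAAA, 12.4%), the CCAAT box (CCAAT, 33.8%), the GC box (GGGCGG, 32.7%), the TEAD motif (GGAATG, 12.6%) and the hypoxia response element core (ACGTG, 16.6%). Not every gene has a window in this set, which covers 29 of the 44 matrix genes. Col8a1 held 4 GC boxes, the nearest ending 18 bases before the start. They read CCGCCC on the printed strand, so GGGCGG lies on the strand opposite to that of the gene. The Timp1 window held 1 GC box, 1 CCAAT box, 1 TEAD motif and 1 ACGTG core, and P4ha1 held 1 GC box and 1 ACGTG core. The windows of Lamb2 and Sparc held none of these letters. A match is a description of the sequence only. Mfap5, Ctgf and Col1a1 had no window and were not searched.

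Col8a1 encodes a short-chain collagen that forms hexagonal networks beneath endothelium and is produced by vascular smooth muscle. Its brighter probe (ILMN_2693495) read 8.56, 8.59 and 7.69 in wild type Sample906, Sample872 and Sample923, and 10.56, 9.72 and 10.24 in transgenic Sample873, Sample874 and Sample871. Every transgenic sample lay above every wild type sample, and the gap between the groups, from 8.59 to 9.72, exceeded the spread within either. The fold was 3.72 (95% confidence interval 2.46 to 5.62; log2 fold change 1.89 ± 0.27, SE; limma adjusted p = 0.00168). The second probe (ILMN_2503553) read 6.82, 7.09 and 6.76 in wild type and 8.71, 7.58 and 8.41 in transgenic samples in the same order, a fold of 2.54 (adjusted p = 0.00694, limma). Of the 8 calls, that of Col8a1 was the only one that held under all 14 alternatives, with log2 fold changes between 1.60 and 2.13.

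**Figure D2:**
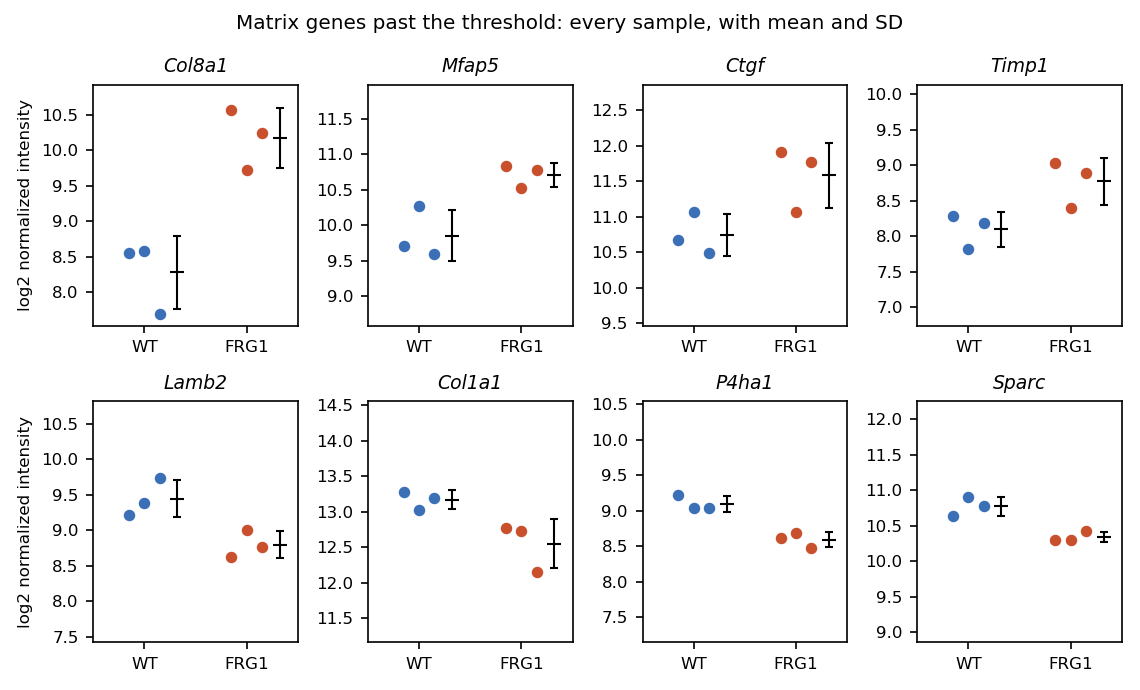
Log2 normalized intensity of the 8 matrix genes past the threshold, 1 point per sample, with the mean and SD of each group (n = 3) in black. Each panel spans the same log2 range. Col8a1, Mfap5, Ctgf and Timp1 are higher in transgenic muscle, and the lower row is lower. The nearest samples of Ctgf read 11.07 in both groups.

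The other network-forming chains measured were those of collagen VI, which anchors basement membrane to the interstitium and is mutated in Bethlem and Ullrich myopathies. Neither passed the threshold. Col6a1 had a log2 fold change of -0.09 (95% confidence interval -0.36 to 0.19) and Col6a2 one of -0.08 (-0.36 to 0.19). Of the 3 Col6a1 probes 2 read slightly lower and the dimmest read 0.24 higher on the log2 scale, and none was called.

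Among the 6 fibrillar collagens 0 rose and 1 fell, with a median log2 fold change of -0.01. Col1a1, the major chain of type I collagen in tendon, bone and scar, read 13.29, 13.02 and 13.20 in wild type and 12.78, 12.73 and 12.15 in transgenic samples. The groups did not overlap, and transgenic Sample871 was lowest. The wild type value was 1.53-fold higher (log2 fold change -0.62 ± 0.18, SE; limma adjusted p = 0.0443). That call was lost when any 1 of the 6 samples was left out, with adjusted p between 0.0585 and 0.138, and also with median scaling, with the authors' processed values or with no detection filter (adjusted p = 0.0954, 0.121 and 0.147).

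Its partner chain Col1a2 read 10.45, 10.48 and 9.93 in wild type and 9.97, 9.84 and 9.77 in transgenic muscle, so that wild type Sample923 lay within the transgenic range. Its log2 fold change of -0.43 ± 0.16 (SE) did not pass (limma adjusted p = 0.112), but did without wild type Sample923 (adjusted p = 0.0119). The log2 ratio of Col1a1 to Col1a2 within a sample differed by -0.19 between the groups, which overlapped. An exact permutation test (two-sided) gave p = 0.5, adjusted 0.6 over the 6 pairs of genes compared here. With so few samples the smallest p that this test can give is 0.1, for each of the 6 pairs. No pair could reach a p under 0.05, so these p-values cannot decide whether a ratio changed.

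Type III and type V collagen are the companions of type I in extensible tissue, the latter setting fibril diameter. Col3a1 had a log2 fold change of 0.14 (95% confidence interval -0.32 to 0.59), and its values spread more within each group (SD 0.29 and 0.36) than between them. Col5a1 stood at 0.15 (-0.14 to 0.45), Col5a2 at -0.16 (-0.65 to 0.33) and the minor chain Col5a3 at 0.46 (0.06 to 0.87; limma adjusted p = 0.125). Col5a3 was dim and was detected on 5 of the 6 arrays. Transgenic Sample874 gave the lowest Col5a2 value, 7.32, against 8.31 and 7.86 in the other transgenic samples. The fibril-associated collagens Col14a1 and Col16a1, which decorate fibril surfaces, had log2 fold changes of 0.02 and -0.25 and were not called. The dimmer Col14a1 probe stood at -0.20 and was not called.

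The basement membrane group had 11 measured genes, of which 0 rose and 1 fell, with a median of -0.07. Lamb2 encodes the laminin beta chain that is concentrated at the neuromuscular synapse. It read 9.21, 9.39 and 9.73 in wild type and 8.62, 9.002 and 8.76 in transgenic samples. The groups did not overlap, and wild type Sample923 was highest. The wild type value was 1.57-fold higher (log2 fold change -0.65 ± 0.16, SE; limma adjusted p = 0.0267). Without wild type Sample872, transgenic Sample873 or transgenic Sample871 the adjusted p was 0.0559, 0.112 and 0.0916, and the call was also lost with median scaling, the authors' processed values or no detection filter (0.0554, 0.0849 and 0.0916).

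The beta chain of most extrasynaptic laminin, Lamb1, was not called (log2 fold change -0.11, 95% confidence interval -0.41 to 0.20). Within samples the log2 ratio of Lamb2 to Lamb1 was lower in transgenic muscle by 0.54 on average. The groups overlapped because transgenic Sample874 lay at 0.16 relative to the mean, above wild type Sample906 at 0.12. The exact permutation p was 0.2 (two-sided, adjusted 0.4 over the 6 pairs), where 0.1 is the smallest possible. Lama2, the alpha chain of muscle laminin whose loss causes congenital muscular dystrophy, had a log2 fold change of -0.07 (-0.39 to 0.26). Its dimmer retained probe stood at 0.10 and was not called. Lama4, the alpha chain of vessel and nerve laminin, stood at -0.07 on its brighter probe (-0.31 to 0.18). Its dimmer retained probe, detected on 3 arrays, stood at 0.13 and was not called. The shared gamma chain Lamc1 stood at 0.22 (-0.08 to 0.51).

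Type IV collagen forms the sheet of the basement membrane from the chains Col4a1 and Col4a2, whose genes are neighbours in the RefSeq table. Their log2 fold changes were 0.00 (95% confidence interval -0.39 to 0.39) and -0.21 (-0.51 to 0.09). The pair ratio overlapped between groups (exact permutation p = 0.2, two-sided, where 0.1 is the smallest possible, adjusted 0.4). Nid1, which links laminin to type IV collagen, stood at 0.07 on its brighter probe, and perlecan, Hspg2, at -0.09. Col18a1, the source of endostatin, stood at -0.34 (-0.66 to -0.03; limma adjusted p = 0.141), and Col15a1, its relative in muscle and capillary basement membranes, at 0.11.

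**Figure D3:**
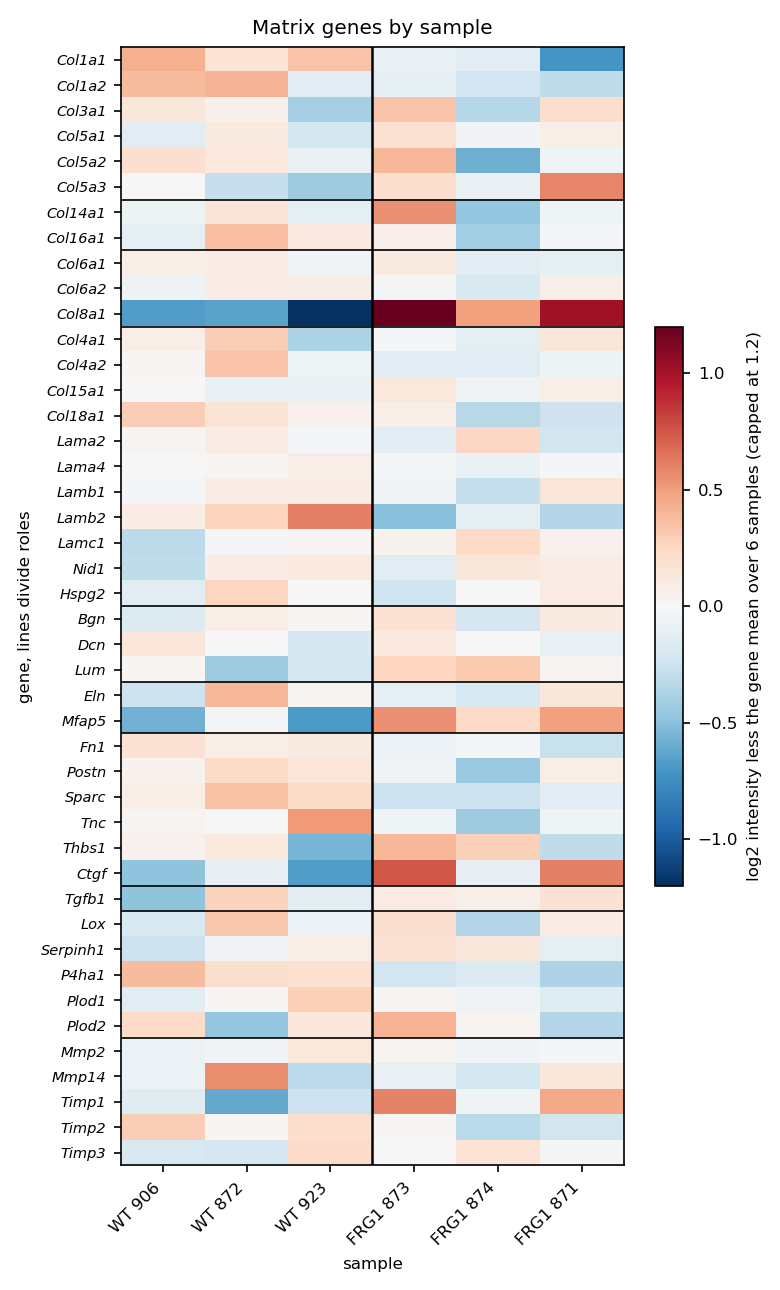
Each row is a matrix gene and each column a sample; colour is the log2 intensity less the gene's mean over the 6 samples, capped at 1.2, with rows divided by role. Col8a1 and Mfap5 are red in all 3 transgenic columns, Ctgf is red in Sample873 and Sample871 only, and transgenic Sample874 is lowest of its group in 28 of the 44 rows.

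Small leucine-rich proteoglycans bind collagen fibrils and restrain TGF-beta, and 0 of 3 changed past the threshold. Dcn, decorin, was measured by 5 probes, 0 of them called, with log2 fold changes from -0.19 to 0.06. Its brightest probe stood at 0.03 (95% confidence interval -0.26 to 0.32). Bgn, biglycan, stood at 0.05 (-0.26 to 0.36). Lum, lumican, read 9.26, 8.81 and 9.04 in wild type and 9.49, 9.55 and 9.27 in transgenic samples. The Lum groups touched without overlapping, with 9.26 beside 9.27, and the log2 fold change of 0.40 ± 0.15 (SE) did not pass (limma adjusted p = 0.102).

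Of the elastic fibre genes, Mfap5 rose. It encodes a microfibril-associated glycoprotein and marks a class of fibroblasts of the outer connective tissue layers. Mfap5 read 9.71, 10.27 and 9.59 in wild type and 10.84, 10.52 and 10.78 in transgenic samples. Wild type Sample872 came nearest to the transgenic range without entering it. The fold was 1.81 (log2 fold change 0.86 ± 0.18, SE; limma adjusted p = 0.0134). Without wild type Sample906, transgenic Sample873 or transgenic Sample871 the adjusted p was 0.0516, 0.0655 and 0.0575, and with the authors' processed values or no detection filter 0.0619 and 0.0718. Eln, elastin, stood at -0.11 (95% confidence interval -0.49 to 0.28).

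Of the 6 matrix glycoproteins 1 was higher and 1 lower (33.3%, against 14.8% of all genes). Their median was -0.26, and -0.09 with median scaling. Ctgf (now Ccn2), connective tissue growth factor, is a matricellular protein induced by TGF-beta and by mechanical strain. It read 10.68, 11.07 and 10.49 in wild type and 11.91, 11.07 and 11.77 in transgenic samples. Transgenic Sample874 equalled wild type Sample872 to 2 decimals, while the other transgenic samples lay well above. The fold was 1.79 (log2 fold change 0.84 ± 0.23, SE; limma adjusted p = 0.0362). Leaving out wild type Sample906, wild type Sample923, transgenic Sample873 or transgenic Sample871 gave adjusted p = 0.0981, 0.0676, 0.142 and 0.130. The authors' processed values, no detection filter, and a fit with a trended and robust prior gave 0.116, 0.167 and 0.0540.

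Sparc, osteonectin, binds collagen and aids its assembly. It read 10.64, 10.91 and 10.78 in wild type and 10.30, 10.30 and 10.42 in transgenic muscle, with no overlap. Of the 8 called genes it had the smallest change, 1.35-fold higher in wild type (log2 fold change -0.44 ± 0.12, SE; limma adjusted p = 0.0430). With 1 sample left out the call held without wild type Sample906 alone, while omitting wild type Sample872 or Sample923 gave adjusted p = 0.115 and 0.0634, and omitting transgenic Sample873, Sample874 or Sample871 gave 0.141, 0.109 and 0.0983. Median scaling and the authors' processed values gave 0.163 and 0.0964.

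Fn1, fibronectin, the scaffold on which collagen is first laid down, had log2 fold changes of -0.24 and -0.33 on its retained probes, and the groups did not overlap on either, but neither was called (limma adjusted p = 0.224 and 0.163). Postn, periostin, and Tnc, tenascin-C, both raised in wounds and in regenerating muscle, stood at -0.28 (95% confidence interval -0.62 to 0.06) and -0.35 (-0.74 to 0.03). Thbs1, thrombospondin-1, an activator of latent TGF-beta, was dim, and stood at 0.25 (-0.25 to 0.75). Tgfb1 itself stood at 0.23 (-0.17 to 0.62), with transgenic values of 5.65, 5.62 and 5.72 inside the wild type range of 5.07 to 5.83.

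Of the 5 enzymes and chaperones that make collagen, 1 fell. P4ha1, the catalytic subunit of collagen prolyl hydroxylase, read 9.23, 9.03 and 9.03 in wild type and 8.62, 8.68 and 8.47 in transgenic samples, with no overlap. The wild type value was 1.42-fold higher (log2 fold change -0.51 ± 0.12, SE; limma adjusted p = 0.0243). Its second probe read 6.08, 6.00 and 6.03 against 5.47, 5.72 and 5.11 and was 1.51-fold higher in wild type (adjusted p = 0.0328, limma). On the brighter probe the adjusted p was 0.0747, 0.0795 and 0.110 without wild type Sample906, transgenic Sample873 and transgenic Sample871, and 0.125 and 0.0649 with median scaling and the authors' processed values. The lysyl hydroxylases Plod1 (-0.12) and Plod2 (0.07), the collagen chaperone Serpinh1 (0.15) and the cross-linking enzyme Lox (-0.05) were not called, with 95% confidence intervals for Serpinh1 of -0.16 to 0.45 and for Lox of -0.45 to 0.36.

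Neither matrix protease was called, and 1 of the 3 inhibitors rose. Timp1, an inhibitor of metalloproteinases that is induced in injured tissue, read 8.29, 7.82 and 8.19 in wild type and 9.03, 8.40 and 8.89 in transgenic samples. The groups did not overlap, and transgenic Sample874 was again nearest to wild type. The fold was 1.59 (log2 fold change 0.67 ± 0.19, SE; limma adjusted p = 0.0410). Without wild type Sample906, wild type Sample872, transgenic Sample873 or transgenic Sample871 the adjusted p was 0.0565, 0.120, 0.157 and 0.139, and with the authors' processed values or no detection filter 0.116 and 0.152.

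Timp2, which both inhibits Mmp2 and takes part in its activation, stood at -0.34 (95% confidence interval -0.65 to -0.04; limma adjusted p = 0.129). Within each sample the log2 ratio of Timp1 to Timp2 was higher in every transgenic sample than in every wild type sample, by 1.02 on average. This was the only 1 of the 6 pairs whose groups did not overlap. Its exact permutation p of 0.1 (two-sided, adjusted 0.4 over the 6 pairs) is the smallest that 3 against 3 samples allow. Among single genes 36.6% did not overlap, Timp1 and Timp2 among them, so the ratio restates their values. Mmp2, gelatinase A, stood at -0.02 (-0.28 to 0.24), the membrane protease Mmp14 at -0.11 (-0.58 to 0.35), and Timp3, which binds to the matrix, at 0.10 (-0.22 to 0.43).

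For the 36 genes not called, the fit bounds the change under quantile normalization, gene by gene. The intervals do not include the choice of normalization, and median scaling moved the median of all genes by 0.13. In 24 of them (66.7%, against 70.4% of all uncalled genes) the whole 95% confidence interval lay within 1.5-fold in either direction. The other 12 had intervals that reach beyond that, among them Col1a2, Col3a1, Col5a2, Col5a3, Tnc and Thbs1, and for these a change of that size is not excluded. Of the 36, 5 had an unadjusted p under 0.05, Col1a2, Col5a3, Col18a1, Lum and Timp2.

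Across samples, transgenic Sample874 gave the lowest transgenic value in 28 of the 44 genes (63.6%, against 35.9% of all genes), and transgenic Sample873 the highest in 24 (54.5%, against 33.5%). Among wild type samples, Sample872 was highest in 20 of 44 (45.5%, against 29.0% of all genes). Averaged over genes, each taken relative to its mean over the 6 samples on the log2 scale, the fibrillar collagens stood at 0.17, 0.10 and -0.16 in wild type and 0.15, -0.23 and -0.03 in transgenic samples. The fibrillar groups overlapped. The basement membrane genes stood at -0.02, 0.14 and 0.04 against -0.09, -0.04 and -0.03, and the small proteoglycans at 0.00013, -0.11 and -0.12 against 0.18, 0.04 and 0.02. These last 2 roles did not overlap between groups, and their nearest samples stood at -0.02 and -0.03 and at 0.00013 and 0.02. The proteases and their inhibitors, at -0.04, -0.05 and -0.0014 against 0.11, -0.09 and 0.06, overlapped.

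**Figure D4:**
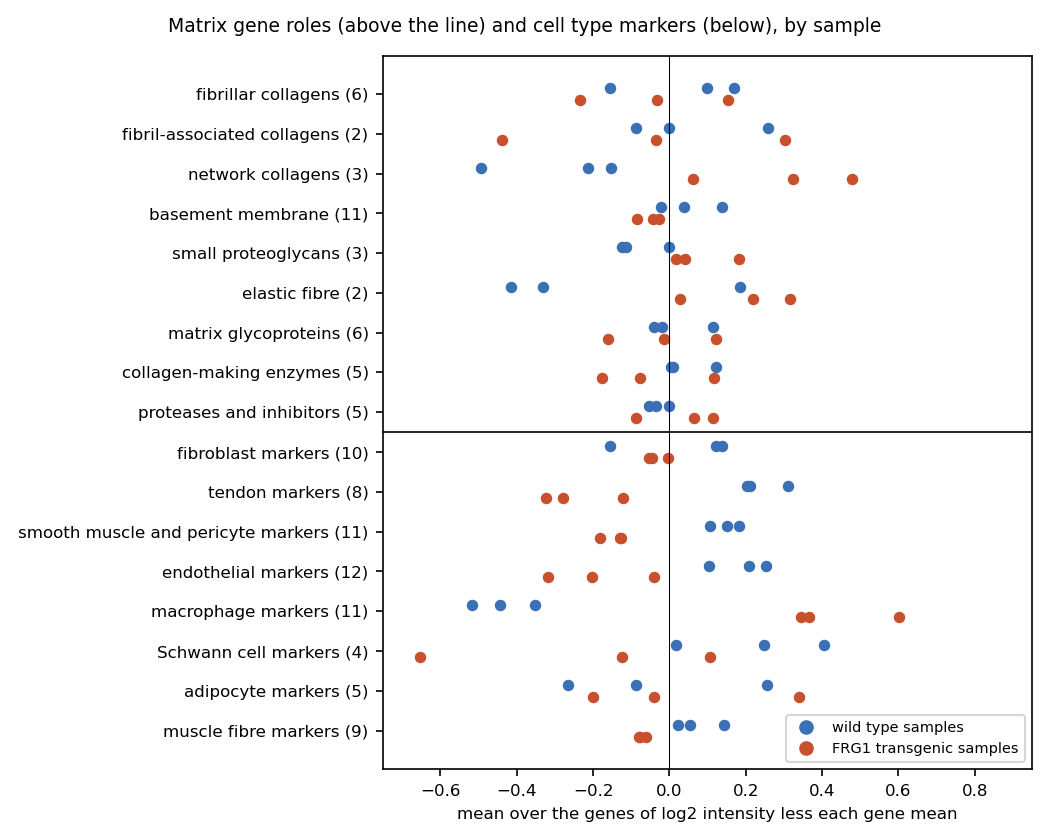
Mean over the genes of a role (above the line) or of a cell type's markers (below it) of the log2 intensity less each gene's mean, 1 point per sample, with the number of genes in brackets. Macrophage and tendon markers separate the groups widely, at 0.34 to 0.60 against -0.52 to -0.35 and at -0.32 to -0.12 against 0.20 to 0.31. Endothelial, smooth muscle and pericyte, and muscle fibre markers also separate and are lower in transgenic samples, and the other markers overlap. Among matrix roles, network collagens separate, at 0.06 to 0.48 in transgenic samples against -0.49 to -0.15 in wild type. Basement membrane and small proteoglycans separate by less, and the others shown overlap. The network collagen mean covers 3 genes, and Col8a1 (log2 fold change 1.89) was the only one whose groups did not overlap. Col6a1 (-0.09) and Col6a2 (-0.08) overlapped.

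Markers of the cells that make or remodel matrix are given beside these results, and their part in them was not tested. Of 10 measured fibroblast markers 0 were higher and 0 lower, with a median log2 fold change of -0.02 and a summed linear signal of 3902 to 5014 in wild type and 4000 to 4335 in transgenic muscle (Tcf21 was not retained, and Pi16, Ly6a and Clec3b had no named probe). The groups did not overlap in 3 of the 10, all lower (30%, against 36.6% of all genes). The 2 fibroblast markers with an unadjusted limma p under 0.05 were both lower, and neither was called. Of 8 tendon markers 0 were higher and 5 lower (62.5%, against 14.8% of all genes). Their summed signals were 6221 to 7223 in wild type and 4274 to 4852 in transgenic muscle (Thbs4 was not retained). The tendon markers with the smallest p were Tnmd, tenomodulin, with a log2 fold change of -0.89 ± 0.13 (SE), the tendon transcription factor Mkx (-0.62 ± 0.13), the proteoglycan Kera (-1.09 ± 0.23) and Fmod, fibromodulin (-0.77 ± 0.19). Those of Mkx, Kera and Fmod lost their calls under 1, 5 and 4 of 14 alternatives.

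Of 11 macrophage markers 10 were higher and 0 lower (90.9%, against 14.8% of all genes). Their summed signals were 2302 to 2576 in wild type and 4738 to 6081 in transgenic muscle (Cd163 was not retained). Lgals3 (2.59 ± 0.17), Ctss (1.03 ± 0.14), Lyz2 (1.06 ± 0.15) and Fcer1g (0.85 ± 0.13, log2 fold change and SE) had the smallest p. Of 11 smooth muscle and pericyte markers 0 were higher and 3 lower (27.3%, against 14.8% of all genes), Abcc9, Mylk and Myh11. The call of Myh11 was lost under 5 of 14 alternatives. Summed signals were 11106 to 11886 against 10396 to 11336 (Cnn1 was not retained). These sums overlapped. The mean over the 11 genes, each relative to its own mean, did not, at 0.11 to 0.18 in wild type against -0.18 to -0.13 in transgenic samples. Of 12 endothelial markers 0 were higher and 3 lower (25%, against 14.8% of all genes), Cldn5, Eng and Cdh5. Each of these calls was lost under 7 of 14 alternatives, and summed signals were 8289 to 9158 against 6172 to 7424. Of 4 Schwann cell and 5 adipocyte markers 0 passed, with summed signals of 4934 to 6482 against 3087 to 5482 and of 398 to 627 against 398 to 612 (S100b, Plin1 and Retn were not retained). The muscle fibre markers summed to 179153 to 189597 in wild type and 169333 to 178935 in transgenic muscle.

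The wider matrix, taken from lists that leave out the 44 genes, had 136 measured genes, 8 higher and 16 lower (17.6%, near the 14.8% of all genes), with a median log2 fold change of -0.08. Of 15 other collagens 0 were higher and 3 lower (20%, against 14.8% of all genes), with a median of -0.24. Col2a1, the collagen of cartilage, fell on 2 of 2 probes and read 5.95, 6.48 and 6.35 in wild type and 5.47, 5.09 and 5.08 in transgenic samples (log2 fold change -1.05 ± 0.17, SE; limma adjusted p = 0.00351), a call that held under all 14 alternatives. Col26a1 (-0.75 ± 0.14) and Col4a4 (-0.67 ± 0.14), a chain of specialised basement membranes, also fell. Col26a1 was not called with median scaling, nor Col4a4 with the authors' processed values or without transgenic Sample873. Of 18 other collagen-making enzymes 0 were higher and 1 lower, P4ha2 (-0.61 ± 0.13), the second prolyl hydroxylase subunit, which fell beside P4ha1 but not with median scaling or without transgenic Sample873.

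Of 11 other basement membrane genes 2 were higher and 1 lower (27.3%, against 14.8% of all genes). Frem2 (0.86 ± 0.13) and Fras1 (0.63 ± 0.16, lost under 8 of 13 alternatives), which form a complex in epithelial basement membranes, rose, and Lama5 (-0.50 ± 0.13, lost under 5 of 14) fell. Of 23 other proteases and inhibitors 2 were higher and 0 lower (8.7%, against 14.8% of all genes). Adamts20, a secreted metalloprotease that cleaves versican, read 6.31, 6.57 and 6.75 in wild type and 8.09, 8.30 and 8.08 in transgenic samples, a gap wider than either group's range. It rose 3.06-fold on 2 of 2 called probes (log2 fold change 1.61 ± 0.14, SE; limma adjusted p = 0.000138) and held under all 14 alternatives. Mmp12, the elastase of macrophages, was detected on 0 wild type and 3 transgenic arrays and was at least 1.69-fold higher. It passed the detection filter through the transgenic arrays alone, so its call is not independent of that filter. The limma adjusted p was 0.0254, and the call was lost under 7 of 13 alternatives, among them no detection filter.

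Of 33 other proteoglycans and glycoproteins 1 was higher and 6 lower (21.2%, against 14.8% of all genes), with a median of -0.25. Mgp, matrix Gla protein, an inhibitor of calcification, rose (0.64 ± 0.12), and Matn4, a matrilin (-1.01 ± 0.11, on 1 of 2 probes), Ltbp3, which stores latent TGF-beta (-0.61 ± 0.11, on 3 of 4 probes), and Fmod, already counted among the tendon markers, fell. Comp, another of the 6 lower genes, was also a called tendon marker. The calls of Mgp, Matn4 and Ltbp3 held under all 14 alternatives. Of 16 genes of TGF-beta signalling 0 were higher and 4 lower (25%, against 14.8% of all genes), with a median of -0.12. Among these 16, Ltbp1 (not called) is also in the list before. The activin receptor Acvr1b (-0.95 ± 0.15, on 2 of 4 probes) held under all alternatives, whereas Tgfbi (-0.45 ± 0.12), the signal transducer Smad3 (-0.49 ± 0.13) and its repressor Skil (-0.44 ± 0.13) lost their calls under 7, 6 and 10 of 14.

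Of 21 matrix receptors 3 were higher and 1 lower (19%, near the 14.8% of all genes). Itgav, the integrin alpha chain that binds fibronectin, vitronectin and latent TGF-beta, rose 2.42-fold on 1 of 3 probes, from 6.00, 5.96 and 6.11 in wild type to 7.30, 7.50 and 7.10 in transgenic samples (limma adjusted p = 0.000344). Averaging the 3 Itgav probes lowered the log2 fold change from 1.28 to 0.40. Itgb5, one of the beta chains that pair with Itgav, was 1.83-fold higher in wild type on 2 of 2 probes. It read 9.07, 8.97 and 8.89 against 8.09, 8.18 and 8.03 (adjusted p = 0.00128, limma). The other integrin beta chains measured, Itgb1 (0.28), Itgb4 (-0.24) and Itgb6 (-0.0035), were not called. Cd44, the hyaluronan receptor, rose 1.83-fold on 1 of 2 probes, and Itga3, a laminin receptor chain, 1.43-fold with a call lost under 6 of 14 alternatives. The calls of Itgav, Itgb5 and Cd44 held under all 14.

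**Figure D5:**
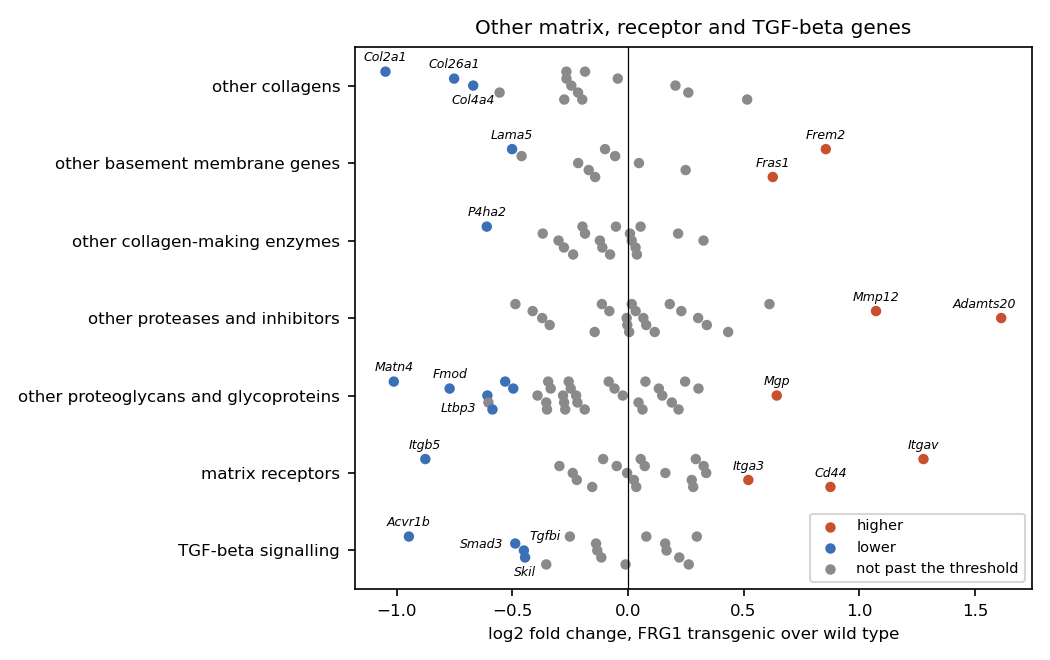
Log2 fold change of the further matrix, receptor and TGF-beta genes, 1 point per gene in each list. Points are coloured where the adjusted p was under 0.05, with up to 4 called genes of a list named. Adamts20 (1.61) and Itgav (1.28) lie farthest to the right, and Col2a1 (-1.05) and Matn4 (-1.01) farthest to the left.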

How the data were processed

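Total RNA of 6 vastus lateralis samples was hybridised to Illumina mouse bead arrays after cRNA labelling, per the labels' protocols. The authors deposited, per the file headers, for each array 46632 probes with an unnormalized intensity and a p-value of detection. A second deposited table holds processed intensity values made with lumi, per the submitters' processing notes (version and settings not given in the sources used here). Its columns keep the rank order of the signals, with medians of 5.07, 5.11, 5.12, 5.12, 5.15 and 5.15 and 33.7% to 33.9% of values below 0, so its scale is linear and what was subtracted is unknown; floored at 1, it served as an alternative only.

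Signals were background corrected and quantile normalized (neqc of limma 3.58.1, R 4.3.3, offset 16) and taken to log2. The 19563 probes detected on at least 3 of 6 arrays were fitted with lmFit and eBayes on group alone, and the p-values (two-sided) underwent Benjamini-Hochberg adjustment over all of them (threshold 0.05). The offset understates changes of dim probes. The fit was also run on independent values simulated from its own variances, which cannot test the normalization or effects shared across an array. The retained probe with the highest mean represents a gene. Symbols of the platform annotation (29976 probes with 1, 10 with several, 16646 with none) were updated through Entrez genes to RefSeq (29921 matched). A fold against a group with no detected array is a bound, set against the lowest signal of a detected probe on each array of that group or the probe's own, whichever was higher. Lists are described by counts and medians, without tests.

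Named as results are all 48 genes of the matrix list and, from each further or marker list, at most 4 called genes with the smallest p. Comp, Ltbp1, Itgb1, Itgb4 and Itgb6 are named besides, for the overlap of lists or as other integrin beta chains. The members and lists were chosen with earlier results of these data known. Alternatives were median scaling, cyclic loess, the authors' values, 2 other detection filters, offset 50, a trended robust prior, averaged probes and each sample left out.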

Additional observations from a re-analysis of the deposited data

How the results depend on the processing

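Of the 614 alternative values of the 44 matrix genes, 45 lost and 1 gained a call, 0 reversed a call, and 40 changed sign while below the threshold in both fits. Median scaling gave 4 called matrix genes, 4 higher and 0 lower, against 8, 4 and 4. The authors' processed values gave 1, with 1 higher and 0 lower, and no detection filter 3, with 1 higher and 2 lower. With 1 sample left out the counts ranged from 1 to 6 in all, 1 to 4 higher and 0 to 3 lower, and called probes of the whole array from 1334 to 2669 against 2702, or 1616 with the authors' values. Cyclic loess, offset 50, averaged probes and detection on all 6 arrays gave 8 matrix genes, and a trended robust prior 7; detection on all 6 arrays left no value for Col5a3 and Thbs1. The cause of these shifts was not tested.

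Median scaling moved the median log2 fold change of all matrix genes from -0.06 to 0.0695, of the basement membrane genes from -0.07 to 0.0734 (0.0018 with probes averaged), of the glycoproteins from -0.26 to -0.0916, of the proteases and inhibitors from -0.02 to 0.0656 and of the proteoglycans from 0.05 to 0.165. With 1 sample left out the medians ranged from -0.20 to 0.15 for fibrillar collagens, from -0.15 to 0.0688 for collagen-making enzymes and from -0.0239 to 0.162 for proteoglycans. No paired analysis was made because the labels name no pairs, and shared litters or batches cannot be read from the sample numbers.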
